A study of Mus musculus with 2 samples.

Results

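Injury-marked proximal tubule cells were the kidney cells that carried RNA of proximal tubule genes together with RNA of *Vcam1* or *Havcr1*. Each was a barcode with at least 200 genes, at most 20% mitochondrial unique molecular identifiers (UMIs, counted transcript molecules), a UMI of at least 3 of *Lrp2*, *Slc34a1*, *Cubn*, *Slc22a6* and *Slc27a2*, no UMI of the leukocyte gene *Ptprc*, UMIs of fewer than 2 of *Mki67*, *Top2a*, *Birc5* and *Cdk1*, and at least 1 UMI of *Vcam1* or *Havcr1*. By this rule 575 cells were marked, of 9422 tubule cells and 21661 kept cells, with 280 in the young and 295 in the old library. The remaining 8847 tubule cells are called unmarked. Another 28 young and 42 old cells met the other criteria but had a *Ptprc* UMI, and 8 and 5 had RNA of cell cycle genes, so these were left out. Of the marked cells, 205 young and 169 old ones stood just inside the threshold with 1 UMI of the marker genes, and 8 young and 7 old cells with a marker UMI fell just outside with 2 of the tubule genes.

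KIM-1, the product of *Havcr1* (ENSMUSG00000040405; mm10 chromosome 11, 46735080 to 46779578, plus strand), is a phosphatidylserine receptor that tubule epithelium makes after damage and with which it takes up dying cells. VCAM-1, the product of *Vcam1* (ENSMUSG00000027962; chromosome 3, 116109949 to 116129688, minus strand), is an adhesion molecule that binds integrin α4 on leukocytes. Inflammatory cytokines induce it through NF-κB, and it also marks tubule cells that failed to regain a mature state after injury. The healthy proximal tubule reabsorbs filtrate along its segments S1, S2 and S3, burns fatty acids and makes glucose.

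The data were 2 libraries of single-cell RNA-seq, 1 of pooled kidneys of young and 1 of pooled kidneys of old MRL-*lpr* mice, a lupus strain that carries the *lpr* mutation of *Fas* at both ages. The labels give the ages only as young and old, and neither the number of mice nor a control strain enters these comparisons. Cells had passed a density gradient, enrichment for innate lymphoid cells and a live-cell sort, so a share given here is a share of the captured tubule cells and not of the kidney. With 1 library per age there is no replicate, cells of a library are not replicates of a condition, and no test was run. Intervals are 95% intervals and cover counting error only.

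The kept cells had 145647185 UMIs in the young and 119218130 UMIs in the old library. The libraries shared 26 barcodes among kept cells and none among marked cells. Scrublet called 3 young and 1 old marked cells doublets, which were kept. UMIs of Y-linked genes without *Xist* occurred in 50.8% of young and 40.6% of old kept cells, although the study describes its mice as female unless stated otherwise. In marked cells this share was 64.6% in the young and 56.9% in the old library, against 72.9% and 55.3% of unmarked cells matched in depth. The pools may thus hold kidneys of both sexes, in proportions that are not known, and age and sex of the pooled mice cannot be told apart here without splitting the cells.

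The cells were chosen by their UMIs of *Vcam1* and *Havcr1*, so these values are a description. In the young library *Havcr1* was the more frequent marker, with 373 UMIs in 211 tubule cells, against 110 UMIs of *Vcam1* in 72 cells. In the old library *Vcam1* led with 1414 UMIs in 162 cells, against 458 UMIs of *Havcr1* in 155 cells. Summed over all tubule cells, *Vcam1* had 1.04 CPM (0.851–1.25) in young cells, CPM being a gene's UMIs scaled to a common total over the same cells. In old cells it had 22.9 CPM (21.8–24.2). *Havcr1* had 3.51 CPM (3.17–3.89) and 7.43 CPM (6.77–8.14). The old *Vcam1* RNA was concentrated in few cells. The 10 richest cells held 57.6% of it, the 67 cells with at least 3 UMIs held 91.4%, and the highest cell had 229 UMIs, against a maximum of 8 in the young library. The highest *Havcr1* cell had 20 UMIs in the young and 56 in the old library.

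A UMI of either gene occurred in 4.64% (4.12–5.20) of tubule cells in the young and 8.71% (7.78–9.71) in the old library. Marked cells were also deeper than unmarked ones, with a median of 30669.5 against 14233 UMIs in the young and 22746 against 14773 in the old library. The share rose with depth in both libraries. Young *Havcr1* went from 0.329% of cells under 5000 UMIs to 12.5% at 30000 UMIs or more, and old *Vcam1* from 1.31% to 7.22%. With every cell thinned to 5000 UMIs, which left out 911 young and 382 old cells, the share with either gene was 1.60% (1.28–1.98) in the young and 4.49% (3.78–5.29) in the old library. *Vcam1* then had a share of 0.488% (0.316–0.720) among young and 2.83% (2.26–3.48) among old cells, so the intervals did not overlap. For *Havcr1* the shares were 1.11% (0.844–1.44) and 2.0% (1.53–2.56), whose intervals did not overlap either.

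**Figure D1:**
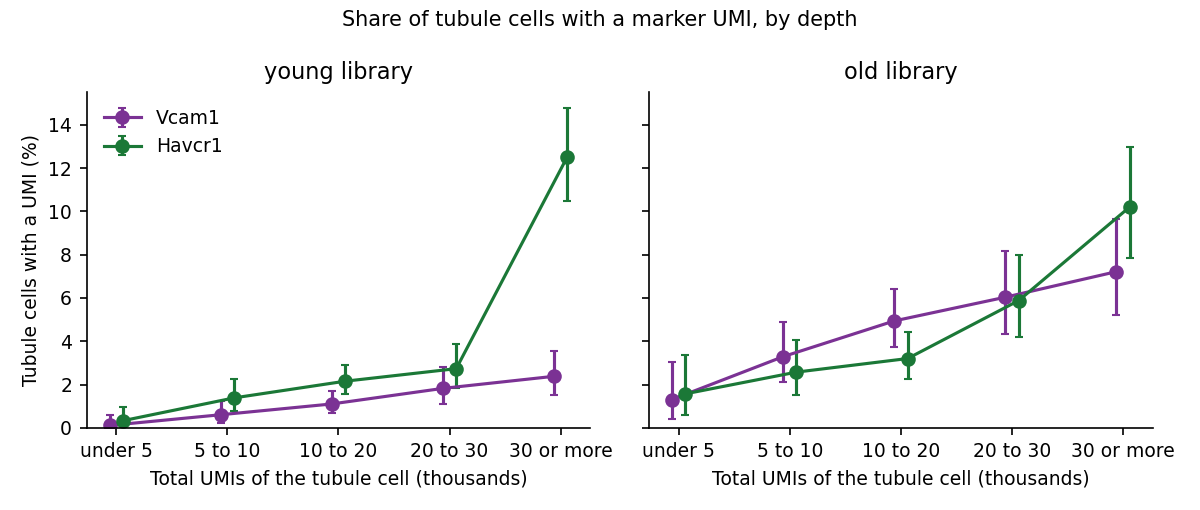
Percentage of tubule cells with a UMI of *Vcam1* or of *Havcr1* (y axis) in 5 classes of total UMIs per cell (x axis), young library left and old library right; bars are exact 95% counting intervals. Young *Havcr1* rises to 12.5% in the deepest class, whereas old *Vcam1* lies above young *Vcam1* in each class.

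T cells, which should lack *Vcam1*, served as background for it. *Havcr1* is also a gene of lymphocytes, so T cells are no clean background for shares that count either gene. A UMI of either gene occurred in 1.0% (0.325–2.32) of 500 young and 0.856% (0.586–1.21) of 3739 old T cells, at lower medians of 4799.5 and 5038 UMIs. Thinned to 5000 UMIs, these shares were 1.29% (0.267–3.73) of 232 and 0.843% (0.483–1.37) of 1898 T cells. The thinned share of young tubule cells lay within the young T cell interval, which rests on 3 T cells and could hardly tell them apart. That of old tubule cells lay above the old T cell interval. For *Vcam1* alone, thinned T cells had 0.431% (0.0109–2.38) in the young and 0.474% (0.217–0.898) in the old library. Thinned tubule cells had 0.488% and 2.83%. Tubule cells with at least 3 UMIs of the marker genes made up 0.663% in the young and 2.77% in the old library, against 0.2% and 0.16% of T cells. At 10 or more UMIs there were 2 young and 40 old tubule cells and no T cell, which allows a share of up to 0.735% and 0.0986%. The part of free RNA in the cells with 1 UMI was not tested, and results are given below also by number of marker UMIs.

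*Havcr1* and *Vcam1* differed in how they were spread along the tubule. A cell was placed by the UMIs of 9 S3 genes as a percentage of those of the S3 and the S1 and S2 lists together, in bins chosen after the values were seen. In the young library *Havcr1* was found in 0.762% (0.484–1.14) of 3017 cells with under 20% S3 UMIs and in 42.2% (35.4–49.3) of 206 cells with at least 95%. Thinned to 5000 UMIs, these shares were 0.0762% and 13.6%. *Vcam1* was found in 1.46% (1.06–1.95) of the former cells and in none of the 206 (0–1.77). Between these ends it was found in 0.852% of cells at 20% to 50%, 1.45% at 50% to 80% and 0.385% at 80% to 95%. Young *Vcam1* thus showed no clear trend along the segments. In the old library *Vcam1* was most frequent at the S1 and S2 end, with 6.22% (5.13–7.46) of 1737 cells and none of the 22 cells at the S3 end. Old *Havcr1* rose less steeply, from 2.53% at the S1 and S2 end to 9.62% between 80% and 95%, and 3 of the 22 cells at the S3 end had it.

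Cells were also split by sex-linked RNA. *Vcam1* was more frequent in cells with *Xist* and no Y-linked UMI, at 3.07% (1.96–4.58) in the young and 7.20% (5.17–9.71) in the old library, than in cells with a Y-linked UMI and no *Xist*, at 1.04% (0.726–1.45) and 4.36% (3.44–5.46). *Havcr1* went the other way, with 1.34% and 2.03% of the former and 4.40% and 6.46% of the latter cells. The Y-linked cells were deeper, with medians of 19099 against 15844 UMIs in the young and 20663 against 15754.5 in the old library. At 5000 UMIs per cell the *Vcam1* shares were 1.23% (0.533–2.41) and 4.67% (2.99–6.93) in the former, and 0.35% (0.175–0.626) and 2.12% (1.47–2.94) in the latter cells. The *Havcr1* shares were 0.923% and 0.924% in the young library and 1.22% against 2.18% in the old library, with intervals that overlapped.

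**Figure D2:**
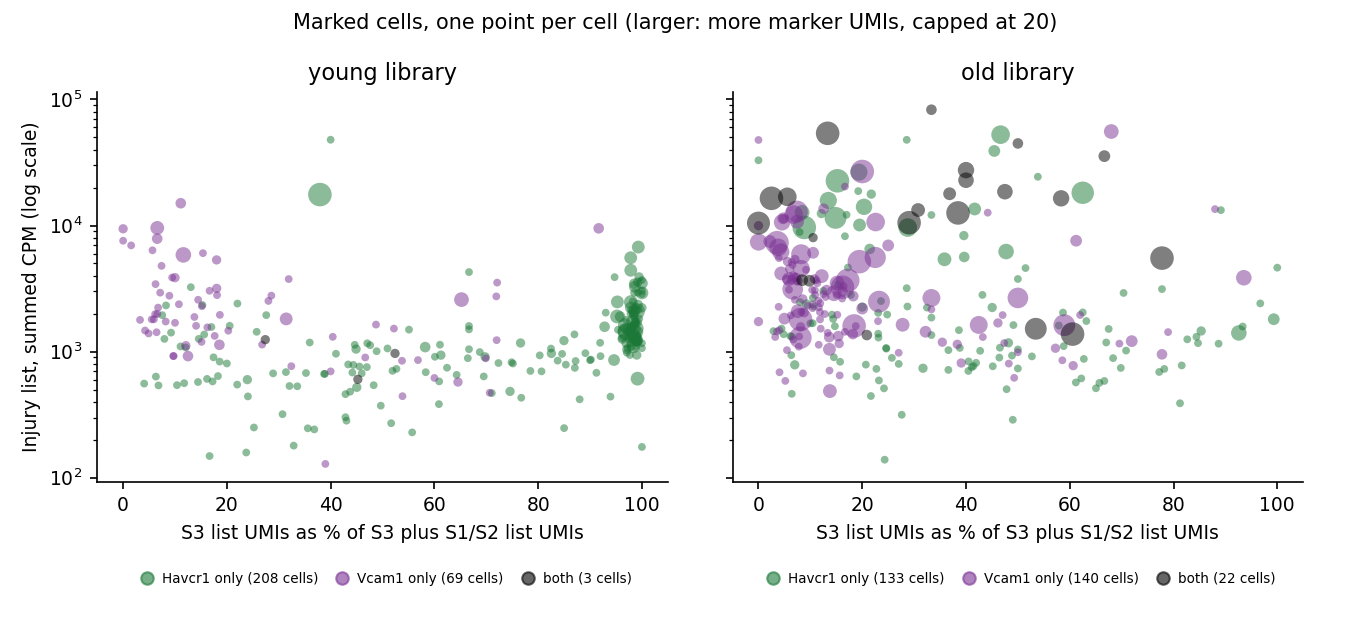
Each point is 1 marked cell, young library left and old library right. The x axis is the S3 share of segment-list UMIs (%), the y axis is the summed CPM of the injury list on a log scale, color gives the marker detected, and size grows with marker UMIs up to 20; young *Havcr1*-only cells have a median S3 share of 85.0% and young and old *Vcam1*-only cells medians of 15.2% and 11.9%.

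In the plot of single marked cells, the S3 share of *Havcr1*-only cells had a median of 85.0% in the young and 35.8% in the old library. The *Vcam1*-only cells sat at 15.2% and 11.9%. The summed CPM of the injury list, described below, reached its highest value of 82939 in an old cell with both markers. Its median was 14852 CPM over the 22 old cells with both markers, against 2514 in *Vcam1*-only and 1512 in *Havcr1*-only old cells.

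Both markers in the same cell were seen in 3 young and 22 old cells. Since the rule fixes this relation among marked cells, it was read over all tubule cells. Of old cells with *Vcam1*, 13.6% (8.71–19.8) had *Havcr1*, against 3.70% (1.37–7.89) of cells matched in depth without *Vcam1*. Of old cells with *Havcr1*, 14.2% (9.11–20.7) had *Vcam1*, against 1.29% (0.157–4.58) of their matched cells. Among the 28 old cells with at least 3 *Havcr1* UMIs the share with *Vcam1* was 32.1% (15.9–52.4), against 3.57%. In the young library the shares were 4.17% against 6.94% and 1.42% against 2.37%, so no excess was seen. None of the 31 young cells with at least 3 *Havcr1* UMIs had *Vcam1*, which allows a share of up to 11.2%.

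The rule required UMIs of at least 3 tubule genes, so the levels of these genes are a description and no check of the label. The 5 tubule genes together had a median of 156 UMIs in young and 103 UMIs in old marked cells, against 98 and 82 in all unmarked cells, which were less deep. Scaled to total UMIs the order was reversed, with 5560 CPM in marked against 7109 CPM in unmarked young cells. In the old library these were 5499 against 5784 CPM. All 5 were detected in 168 young and 204 old marked cells. In 4 young and 7 old marked cells there were fewer than 10 of these UMIs. One of these was the old cell richest in *Vcam1*, with 229 *Vcam1* UMIs and 4 tubule UMIs of 51181 in all. That cell had 827 of the 1048 *Ccl2* UMIs of old marked cells, all 690 of *Wfdc18*, 724 of *Cd74*, 76 of the epithelial gene *Epcam*, 29 of *Sox9* and 4 of the abundant tubule gene *Kap*, and it is named wherever it decides a value.

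RNA of other cell types was present in some marked cells. At least 2 of 7 genes of the loop, distal tubule and collecting duct were detected in 84 young marked cells, against 21 matched cells, and in 17 old marked cells, against 7. Their summed level was 155 against 43.1 CPM in the young and 209 against 13.7 CPM in the old library, where 3 cells held 76.9% of the UMIs. Endothelial genes had 50.03 against 15.6 CPM in the young library, and 3 cells held 79.9% of these UMIs. Among the young cells richest in *Vcam1*, those with 7 and with 3 *Vcam1* UMIs also carried 9 and 3 UMIs of *Pecam1* and 7 and 11 of *Emcn*. Among old cells 3 held 93.8% of the endothelial UMIs and 95.5% of those of B and plasma cell genes. At least 2 podocyte or parietal genes were found in 15 young marked cells, against 10 matched ones, and in 9 old marked cells, against none. Stromal genes had 8 and 3 UMIs in all, with *Col1a1* at 0 in both libraries, and T cell genes 20 and 80 UMIs. The 7 macrophage genes had 25.8 against 9.28 CPM in the young library, with a UMI in 40.4% of marked and 22.9% of matched cells and at least 2 of the genes in 11 against 6 cells, while the defining genes *C1qa*, *C1qc* and *Adgre1* were at 0. Erythroid genes went the other way in their sum only, with 14.4 CPM in young marked and 653 CPM in matched cells. An erythroid UMI was found in 34.3% of both groups, and at least 2 of these genes in 20 marked against 11 matched cells. The part of these RNAs in the results below was not tested, other than by leaving out single cells.

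Marked cells were next compared with unmarked cells of the same library. Each marked cell was paired with the unmarked tubule cell nearest in total UMIs, which gave medians of 30668 UMIs for the young and 22760 for the old matched cells. Differences are log2 ratios of CPM of summed UMIs, and a gene counted as higher or lower at a ratio of at least 1.5-fold, among genes with at least 100 UMIs over both groups of cells. Among old cells 757 of 8660 genes (8.74%) were higher and 82 (0.947%) lower. In the young library 369 of 8841 genes (4.17%) were higher and 339 (3.83%) lower. The median log2 ratio over all genes was 0.07 in the old library and 0.00028 in the young library. The old split depended on the choices, with 324 genes lower when cells were thinned to 5000 UMIs, 342 lower in cells with at least 2 marker UMIs and 207 lower against all unmarked cells. The young counts were 163 and 121 when cells with a UMI of 10 genes of other lineages were left out, and 144 young genes were lower when cells were also matched within segment class.

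Genes of tubule injury and dedifferentiation were far higher in old marked cells. Of the 24 genes of this list, 17 reached 100 UMIs, and 15 of these were higher and none lower, with a median log2 ratio of 2.68. Over all genes 8.74% were higher. A gene that reached the minimum only through the marked cells had to be higher, so the count describes the list and is no support by itself. The list summed to 5011 CPM in marked and 1441 CPM in matched cells. Osteopontin (*Spp1*; chromosome 5, 104435118 to 104441050), a secreted matrix protein that binds integrins, made up most of it, with 3207 against 588 CPM, a log2 ratio of 2.45 (2.40–2.50), and a UMI in 84.7% of marked and 65.8% of matched cells. *Tnfrsf12a*, the TWEAK receptor, had 195 against 56.5 CPM and a log2 ratio of 1.79 (1.63–1.95). *Sox4*, a transcription factor of immature epithelia, had 44.6 against 9.16 CPM and 2.28 (1.89–2.69). *Sox9*, which tubule cells switch on during repair, had 171 UMIs in 9.49% of marked cells and 3 UMIs in 0.339% of matched cells, a log2 ratio of 5.83 (4.26–8.12). It was 5.57 without the richest cell.

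Several injury genes rested on few old cells. *Cryab*, a small heat shock protein, had 509 against 7 UMIs, and 1 cell held 42.0% of the 509. The log2 ratio was 6.18 (5.13–7.51) with and 6.62 without the richest cell of each group. The annexin *Anxa2* had 277 UMIs, 83.0% of them in 1 cell, and *Lcn2*, the classical urinary injury marker, had 98 UMIs, 75.5% in 1 cell and with a UMI in 1.02% of marked cells. The keratin *Krt8* was broadly present in both groups, in 88.1% and 83.4% of cells, with a log2 ratio of 0.54. *S100a11* was also widespread and higher by 0.99 on the log2 scale, at 261 against 132 CPM. *Vim* had 36 against 19 UMIs and did not reach the minimum.

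NF-κB targets and chemokines made up another list with higher levels in old marked cells. NF-κB is the transcription factor that tumor necrosis factor and interleukin 1 activate. Of 20 listed genes 16 reached the minimum, and all 16 were higher, against 8.74% of all genes, with a median log2 ratio of 1.79 and a sum of 1567 against 420 CPM. As above, a gene such as *Ccl2* that reached the minimum only through marked cells had to be higher. The neutrophil chemokine *Cxcl1* had 226 against 20.4 CPM, a log2 ratio of 3.46 (3.22–3.72), and a UMI in 33.2% against 11.9% of cells. The T cell chemokine *Cxcl10* had 299 against 38.3 CPM and a log2 ratio of 2.96 (2.78–3.15). The adhesion molecule *Icam1* differed by 1.86 (1.60–2.13), with a UMI in 47.5% against 28.5% of cells. Feedback inhibitors were higher too, *Nfkbia* by 1.47 and *Tnfaip3* by 1.73, as were the subunits *Nfkb2* by 2.09 and *Relb* by 2.53. The macrophage chemokine *Ccl2* had no UMI in matched cells and 1048 in marked cells, of which the single cell named above held 78.9%.

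The promoters of 3 of these genes are shown as examples of listed targets with higher levels in old marked cells. Each is the gene's own strand, 5′ to 3′, from 250 bases before to 50 bases after the transcription start in RefSeq, on GRCm38.p6, with bases that match the 10-base NF-κB consensus on either strand in capitals. *Cxcl1* lies at chr5:90890995-90891294 on the plus strand and holds 2 overlapping matches, *Cxcl10* at chr5:92348840-92349139 on the minus strand with 3 matches, of which a pair overlap, and *Nfkbia* at chr12:55492598-55492897 on the minus strand with 1 match.
*Cxcl1*: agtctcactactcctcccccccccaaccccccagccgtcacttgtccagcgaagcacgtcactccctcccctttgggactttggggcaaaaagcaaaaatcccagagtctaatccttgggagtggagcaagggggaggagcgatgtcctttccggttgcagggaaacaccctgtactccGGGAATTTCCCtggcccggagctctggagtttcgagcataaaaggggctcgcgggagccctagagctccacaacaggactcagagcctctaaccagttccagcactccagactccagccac
*Cxcl10*: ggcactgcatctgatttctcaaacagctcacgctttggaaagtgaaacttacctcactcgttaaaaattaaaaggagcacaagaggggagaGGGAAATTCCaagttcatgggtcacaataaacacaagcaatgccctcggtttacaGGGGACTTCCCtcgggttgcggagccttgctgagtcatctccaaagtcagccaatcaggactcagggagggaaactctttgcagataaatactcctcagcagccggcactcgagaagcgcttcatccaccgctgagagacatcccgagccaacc
*Nfkbia*: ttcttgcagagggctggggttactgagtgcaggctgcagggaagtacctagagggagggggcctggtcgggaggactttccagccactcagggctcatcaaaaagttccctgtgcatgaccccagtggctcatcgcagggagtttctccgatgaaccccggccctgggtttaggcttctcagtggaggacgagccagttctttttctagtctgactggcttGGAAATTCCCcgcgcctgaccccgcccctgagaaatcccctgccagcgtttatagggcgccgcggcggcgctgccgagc
Of the 14 listed genes in the promoter table, 9 had a match in a window, against 9.55% of all 27025 genes and 8.46% of all 32851 windows. The genes were listed as known targets, so a match is a description of these letters and not of binding.

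Antigen presentation genes were higher in old marked cells as well, on top of a high level in all old tubule cells. All 11 MHC class I genes were higher, with a sum of 5543 against 2754 CPM, and so were all 7 MHC class II genes, with 6194 against 3165 CPM. The share higher over all genes was 8.74%. *H2-K1*, a classical class I heavy chain, had 1243 against 420 CPM and a log2 ratio of 1.57 (1.51–1.63). *Cd74*, the invariant chain of class II, had 3890 against 2030 CPM, a log2 ratio of 0.94 (0.91–0.97), and was detected in 99.3% of marked and 95.6% of matched cells. The nonclassical *H2-Q7* differed by 3.15, with a UMI in 27.8% against 6.44% of cells. Interferon response genes differed less. Of 15 compared, 7 were higher, among them *Gbp2* by 1.37 and *Irf1* by 1.05, while *Irf7* had 20.7 against 21.0 CPM. Complement *C3*, the central component of the cascade, had 102 against 6.20 CPM, a log2 ratio of 4.03 (3.59–4.51), whereas *C4b* was at 248 against 163 CPM.

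Stress response and growth factor genes followed. Of 17 immediate early and heat shock genes compared, 13 were higher, against 8.74% of all genes, with a median log2 ratio of 1.2. *Atf3*, a stress-induced repressor, differed by 2.30 (273 against 55.6 CPM), *Klf6* by 1.501 (766 against 271 CPM) and *Fos* by 0.84. *Hspb1* differed by 5.39, with 836 against 20 UMIs and 29.2% of the 836 in 1 cell. These genes also respond to tissue dissociation, and that part was not tested. Of 15 listed profibrotic and matrix genes 9 reached the minimum and all 9 were higher, with 1102 against 556 CPM in sum. In these lists too, a gene that reached the minimum only through the marked cells had to be higher. *Pdgfb*, a growth factor for pericytes and fibroblasts, differed by 2.43 (58.4 against 10.9 CPM) and *Itgb6*, which activates latent TGF-β, by 0.66. Of EGF receptor ligands, *Hbegf* had 288 against 136 CPM and a log2 ratio of 1.08. *Areg*, amphiregulin, had 182 against 2 UMIs, 78.02% of them in 1 cell, and a UMI in 2.37% of marked cells. *Gdf15*, a secreted stress cytokine, differed by 1.23 and the cell cycle inhibitor *Cdkn1a* by 0.74. Of integrin α4 ligands other than *Vcam1*, *Spp1* is given above, and *Fn1*, fibronectin, had 20 against 5 UMIs.

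The tubule program of old marked cells was close to that of matched cells. None of 11 S1 and S2 genes reached 1.5-fold in either direction, with a median log2 ratio of -0.0022 and a sum of 3412 against 3696 CPM. None of 15 fatty acid oxidation and peroxisome genes compared did so, at a median of -0.23, nor did any of 5 gluconeogenesis genes, at -0.27. In this last list *Fbp1* had 1356 against 1829 CPM, a log2 ratio of -0.43 (-0.47 to -0.39). The nuclear receptor *Hnf4a*, which maintains the proximal tubule state, was at -0.32 and *Pax8* at 0.78, the only 1 of 8 tubule transcription factors past 1.5-fold. *Kap*, an androgen-responsive gene of the tubule, had 34858 against 44561 CPM.

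Segment lists differed between young marked cells and their matched cells. The other lineage lists given above differed between the same cells, and their part was not tested. The S3 list was placed above the S1 and S2 list in 156 of 280 marked cells (55.7%), against 95 matched cells (33.9%). Of 11 S1 and S2 genes 9 were lower, against 3.83% of all genes, with 1850 against 3423 CPM in sum. The glucose transporter *Slc5a2* differed by -1.05, the creatine synthesis gene *Gatm* by -1.21 and *Slc7a8* by -1.38. Of 9 S3 genes 7 were higher, against 4.17% of all genes, with 4438 against 2108 CPM. *Aadat*, a mitochondrial aminotransferase, had 2072 against 497 CPM and a log2 ratio of 2.06 (2.01–2.11), and the organic anion transporters *Slc22a7* and *Slc22a13* differed by 2.24 and 2.23. The amino acid transporter *Slc7a12* had 272 against 36.5 CPM, a log2 ratio of 2.90 (2.73–3.07). The fatty acid enzymes *Acadm* and *Ehhadh* were higher by 1.17 and 0.88, and the glutathione synthesis genes *Gclm* and *Gclc* by 0.80 and 1.08, with *Nqo1* at 1.09. *G6pc*, the last step of glucose release, had 202 against 438 CPM, -1.12.

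Inflammatory lists differed little in the young library. Of 8 NF-κB targets compared 1 was higher and 1 lower, in 203 against 179 CPM, and MHC class II genes had 43.7 against 32.4 CPM. *Cxcl16* was lower, with 27.4 against 42.5 CPM, and *Cxcl1* was higher, with 12.1 against 6.51 CPM. Of 12 injury genes compared 7 were higher, against 4.17% of all genes, and none lower, at a median log2 ratio of 0.73 and a sum of 1694 against 1134 CPM. *Cryab* had 886 against 263 UMIs and a UMI in 23.2% against 3.93% of cells, a log2 ratio of 1.75 (1.55–1.96). *Spp1* had 531 against 355 CPM, in 67.9% and 66.1% of cells. *Tmsb10*, which binds actin monomers, differed by 3.01 (2.37–3.72), and *Cdkn1a* by 1.60, with 31.3% of its UMIs in 1 cell.

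Matching within segment class as well as depth reduced the young segment differences without removing them. The S3 list then had 4442 against 2488 CPM, a log2 ratio of 0.84, and the S1 and S2 list 1863 against 2563 CPM, -0.46. The injury list had 1704 against 1027 CPM, 0.73. In the old library, where 18.6% of marked and 22.4% of matched cells were placed in S3, the injury list was at 1.80 in both matchings and the NF-κB list at 1.71 within segment against 1.90 by depth alone.

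**Figure D3:**
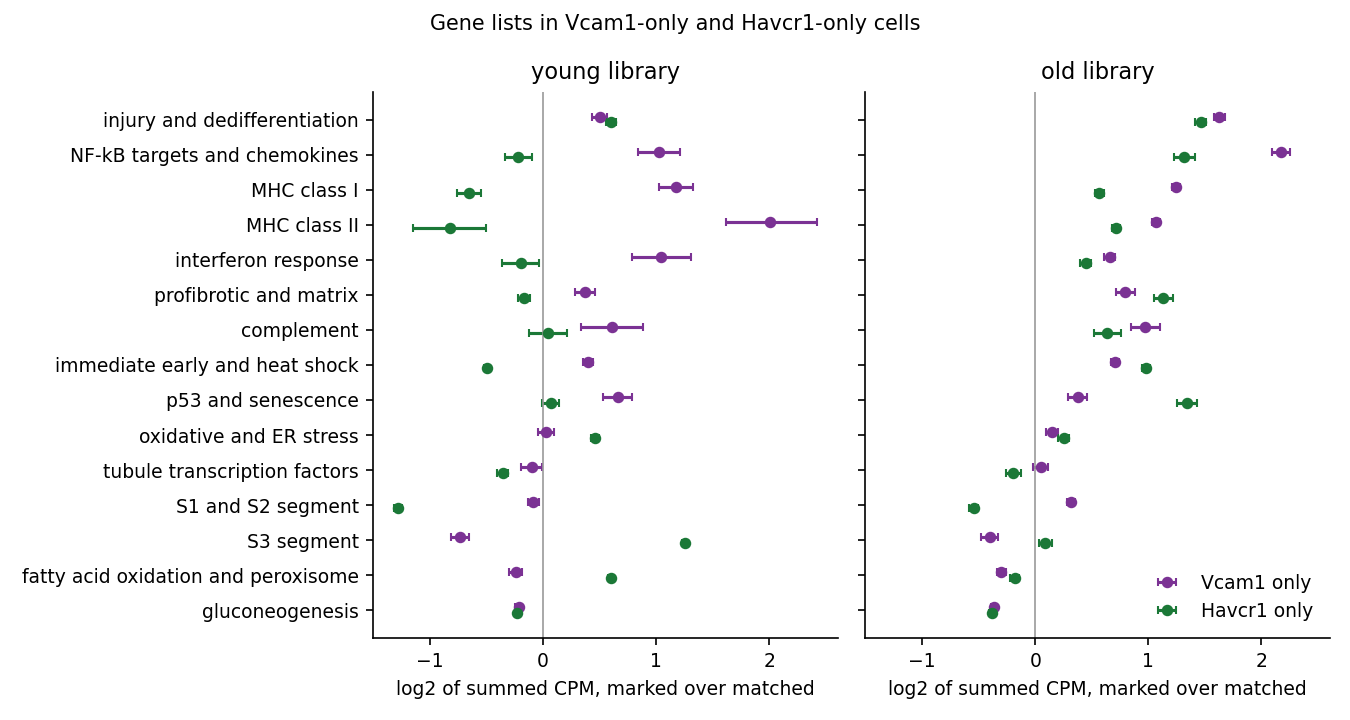
The log2 ratio of summed CPM (x axis) of 15 gene lists (y axis) in *Vcam1*-only and *Havcr1*-only cells over their own depth-matched unmarked cells, young library left and old library right; bars are exact 95% counting intervals and the gray line marks no difference. In the old library NF-κB, injury and MHC lists lie right of the line for both markers, and in the young library MHC lists lie right of it for *Vcam1* and left of it for *Havcr1*.

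The markers separated cells of different make-up, most clearly in the young library. Young *Vcam1*-only cells (69) had MHC class II genes at 163 against 40.3 CPM and MHC class I genes at 707 against 314 CPM, log2 ratios of 2.01 (1.62–2.42) and 1.17 (1.02–1.32). The class II sum of 270 UMIs rested on few cells, since the median cell had 41.2 CPM and the highest 8886.5 CPM. The NF-κB list of these cells was at 1.03 (0.84–1.21). Young *Havcr1*-only cells (208) went below their matched cells in all of these, at -0.82 (-1.15 to -0.50), -0.66 (-0.76 to -0.55) and -0.22 (-0.34 to -0.10). The S1 and S2 list was at -0.09 in *Vcam1*-only and -1.28 in *Havcr1*-only young cells, and the S3 list at -0.73 and 1.26. S3 placement was 18.8% against 17.4% in *Vcam1*-only cells and 68.3% against 38.9% in *Havcr1*-only cells. Endothelial genes were at 262 CPM in young *Vcam1*-only cells, against 4.82 CPM in segment-matched cells, and few cells held these UMIs, as given above. Their part in the young *Vcam1* values was not tested.

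Among old cells both kinds of cell shared the direction. The NF-κB list was at 2.17 (2.09–2.26) in the 140 *Vcam1*-only and 1.32 (1.23–1.41) in the 133 *Havcr1*-only cells, and the injury list at 1.63 (1.58–1.68) and 1.46 (1.42–1.51). MHC class I genes differed by 1.25 and 0.57, and class II genes by 1.07 and 0.71. The 22 cells with both markers had the largest injury ratio of these classes, 3.12 (3.03–3.22), with 14794 against 1700 CPM. They were also lowest in gluconeogenesis, at 4244 against 9836 CPM, -1.21 (-1.28 to -1.14). For *Vcam1*-only and *Havcr1*-only old cells that list was at -0.37 and -0.38.

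**Figure D4:**
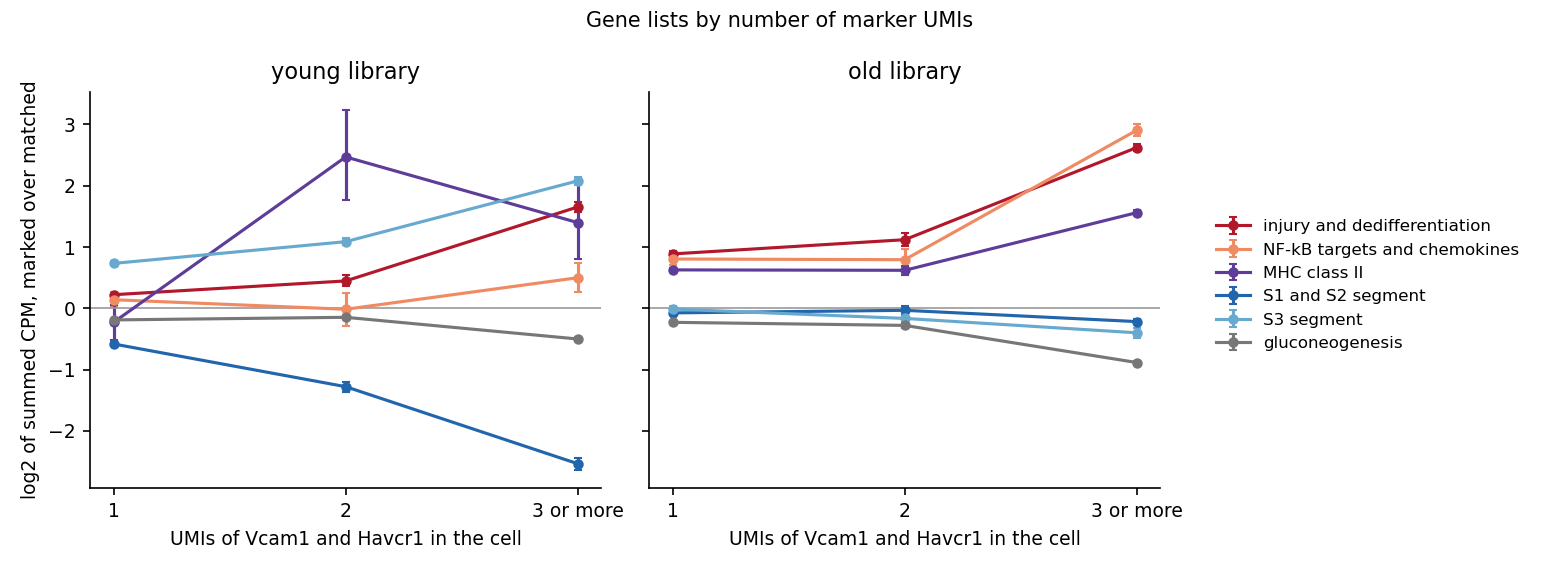
The log2 ratio of summed CPM of 6 gene lists (y axis) against the number of *Vcam1* and *Havcr1* UMIs in the marked cell (x axis: 1, 2, or 3 or more), young library left and old library right; bars are exact 95% counting intervals and each class has its own depth-matched cells. The old NF-κB list goes from 0.81 and 0.79 to 2.91, and the young S1 and S2 list from -0.58 through -1.28 to -2.53.

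The differences given here were larger in cells with 3 or more marker UMIs than in cells with 1, but not at each step. In the plot of lists by marker UMIs, old cells with 1 UMI (169) had the injury list at 0.89 (0.84–0.94), cells with 2 UMIs (32) at 1.12 (1.02–1.22) and cells with 3 or more (94) at 2.62 (2.57–2.67). The NF-κB list was at 0.81, 0.79 and 2.91 in these classes, and MHC class II genes at 0.63, 0.62 and 1.56. Gluconeogenesis genes were at -0.23, -0.28 and -0.88. In the young library the classes held 205, 35 and 40 cells. The S3 list was at 0.73, 1.09 and 2.08 and the S1 and S2 list at -0.58, -1.28 and -2.53, while the NF-κB list was at 0.14, -0.01 and 0.50. The young injury list was at 0.22, 0.45 and 1.65. The classes also differed in make-up. In the young library 48.3%, 71.4% and 80% of their cells were placed in S3, against 31.2%, 51.4% and 37.5% of matched cells. Of the 40 cells with 3 or more UMIs, 31 had at least 3 of *Havcr1*. The part of this mix was not tested.

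Cells with at least 3 UMIs of 1 marker were examined gene by gene against unmarked cells matched in depth and segment class, both with at least 10 UMIs of the tubule genes. The genes named for these classes in the next paragraphs lead their ratios or belong to the lists, and were chosen after their values were seen. The 65 old cells with at least 3 *Vcam1* UMIs all had *Spp1*, with 1, 37 and 2005 UMIs as the lowest, median and highest value, against 0, 2 and 72 in matched cells. This amounted to 4938 against 461 CPM, a log2 ratio of 3.42 (3.31–3.53). Ceruloplasmin (*Cp*; chromosome 3, 19957054 to 20009145), a copper-carrying ferroxidase, was found in 22 of these cells with 400 UMIs and in none of the matched cells, at least 7.06 higher on the log2 scale when the matched cells are set to 3 counts in all. *C3* was found in 36 against 7 cells, with a log2 ratio of 5.84 (4.90–6.97). *Ubd*, a ubiquitin-like protein induced by inflammatory cytokines, was found in 57 against 18 cells and differed by 4.42 (3.91–4.97).

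*Cxcl10* was found in 39 of the 65 cells, with a highest value of 412 UMIs, and in 5 matched cells, a log2 ratio of 3.89 (3.58–4.21). *H2-K1* had a median of 40 UMIs, against 7, and *Cd74* of 116 UMIs, against 41, so class II RNA was present in nearly all cells of both groups and higher in the marked ones. *Pdgfb* was found in 43 against 12 cells (3.74). The genes at the lower end differed less. They included *Hpd*, of tyrosine breakdown, at -2.06, the aminoacylase *Acy1* at -1.46, *Aadat* at -1.27 and the transcription factor *Klf15* at -1.17. *G6pc* was found in 40 of 65 marked and 64 matched cells, at -0.53, and *Slc5a12* was at -0.14.

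The 28 old cells with at least 3 *Havcr1* UMIs overlapped with the class above, since 5 cells had at least 3 UMIs of each marker, among them the cell with 2005 *Spp1* UMIs, so the values of the classes are not independent. *Spp1* had 3, 265 and 2005 UMIs as lowest, median and highest value, against 0, 5 and 208, a log2 ratio of 3.68 (3.57–3.79). *Hspb1* differed by 7.53 (5.66–10.6), and 1 cell held 50.1% of its UMIs. *Atf3* was found in 21 against 8 cells (4.74), *Myc* in 78.6% against 3.57% of cells (6.07), and *Cd14*, a co-receptor for endotoxin, in 19 cells against none. *Sox9* was found in 11 cells against none. At the lower end, the secreted phosphoprotein gene *Spp2* was at -4.23, *Gatm* at -3.76 (102 against 1391 CPM), *G6pc* at -3.72 (33.7 against 445 CPM) and the lactate transporter *Slc5a12* at -3.57. *Hnf4a* was at -1.77 (-2.19 to -1.36), with a median of 2 against 7 UMIs. These cells had a median of 80 UMIs of the tubule genes and were placed in S3 in 17.9% of cases, against 32.1% of depth-matched cells.

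**Figure D5:**
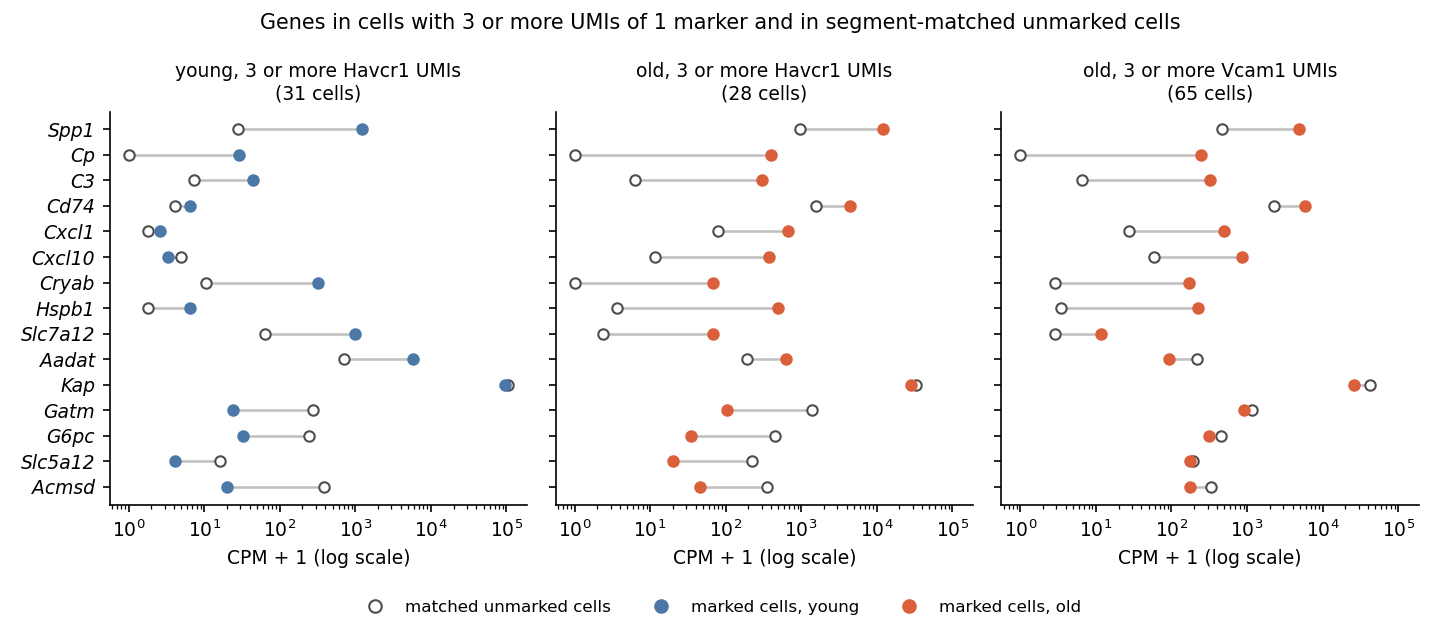
CPM + 1 on a log axis (x) of 15 genes (y) in cells with at least 3 UMIs of 1 marker (filled) and in unmarked cells matched in depth and segment class (open), with both groups limited to cells with at least 10 UMIs of the tubule genes; panels are 31 young *Havcr1*, 28 old *Havcr1* and 65 old *Vcam1* cells. *Cxcl1* and *Cd74* are far right only in the old panels, *Slc7a12* and *Aadat* are highest in the young panel, and *Gatm* and *G6pc* fall left of their matched value in both *Havcr1* panels.

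The 31 young cells with at least 3 *Havcr1* UMIs were of another kind. All but 1 were placed in S3, against 15 of 31 depth-matched cells, and their median mitochondrial share was 2.40% against 5.15%. *Aadat* had 2, 225 and 879 UMIs as lowest, median and highest value, against 0, 15 and 440 in segment-matched cells, a log2 ratio of 3.06 (2.96–3.16). *Slc7a12* was found in 27 against 8 cells (3.98), *Apoe* in 93.5% against 19.4% (4.82), the prolactin receptor *Prlr* in 80.6% against 22.6% (5.15), *Epcam* in 26 against 4 cells (4.29) and *Cryab* in 19 cells against 1 (5.07). *Akr1c18*, which degrades progesterone, differed by 7.47, with 67.2% of its UMIs in 1 cell. The carbonic anhydrase *Car4* was at -5.35, *Acmsd*, of tryptophan breakdown, at -4.36 and *Gatm* at -3.60. The NF-κB list was at 127 against 132 CPM in segment-matched cells and *Cd74* at 7 against 4 UMIs. Against depth-matched cells, MHC class I genes had 149.6 against 317 CPM, a log2 ratio of -1.08 (-1.34 to -0.83), and immediate early and heat shock genes 1565 against 4002 CPM, -1.35 (-1.43 to -1.28). Only 15 of the 31 depth-matched cells were placed in S3, so these ratios do not separate the marker from the segment. The injury list was at 2715 against 820 CPM in segment-matched and 883 CPM in depth-matched cells.

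*Spp1* in these young cells depended on 1 cell and on the matching. The only cell outside S3 held 632 of the 1545 UMIs. The log2 ratio was 5.51 against segment-matched cells, which had 34 UMIs, 2.33 against depth-matched cells, which had 307 UMIs, and 2.13 against the latter without the richest cell of each group. Y-linked RNA without *Xist* was found in 35.5% of the 31 cells and in 74.2% of depth-matched cells, and *Xist* without Y-linked RNA in 12.9% and 9.68%. Genes of the loop, distal tubule and collecting duct, a list that holds *Epcam*, moved with this class. At least 2 of them were found in 24 of the 31 cells against 2 matched cells. A macrophage gene had a UMI in 80.6% of the 31 and 22.6% of depth-matched cells. At least 2 macrophage genes were found in only 2 of the 31 and 0 matched cells. Their part was not tested.

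Of 8397 genes compared in both libraries, 254 were higher and 311 lower in young marked cells, and 607 were higher and 74 lower in old ones. Of all 8397, 45.9% had the same sign, 76 were higher in both, 12 were lower in both and 40 were called in opposite directions. The 76 made up 29.9% of the 254 genes called higher in young cells, where 607 of all 8397 were called higher in old cells. They made up 12.5% of the 607, where 254 of all 8397 were called higher in young cells. By the smaller of the ratios, the 12 leading shared genes at the upper end included *Cp* (3.37 in the young and 6.85 in the old library), the kininogen *Kng2* (3.37 and 4.89), *Tmsb10* (3.01 and 4.05), *Epcam* (2.97 and 5.58), *Slc7a12* (2.90 and 3.03), *Cryab* (1.75 and 6.18), *C3* (1.54 and 4.03) and the collagen *Col18a1* (1.49 and 2.10). Of the 144 *Epcam* UMIs of old marked cells, the cell richest in *Vcam1* held 76. *Epcam*, *Kng2* and *Slc7a12* had a UMI in only 6.10%, 5.76% and 8.47% of old marked cells. The matrix protein *Sparc* (2.41 and 2.44) and the histamine enzyme *Hdc* (2.22 and 2.79) were found in 7.86% of young marked cells each and in 4.07% and 4.41% of old ones. *Slc12a3*, the thiazide-sensitive transporter of the distal tubule, had 87.6% of its young and 57.2% of its old UMIs in 1 cell each, and its old log2 ratio was -5.40 among cells with at most 10% mitochondrial UMIs and -0.22 when matched within sex class. *Lrg1* had 74.8% of its young UMIs in 1 cell, and its young log2 ratio was 1.59 with and -0.32 without the richest cell of each group.

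At the lower end of the shared genes stood *Gm4208* (-1.05 in the young and -1.62 in the old library), *Gm12678* (-1.25 and -0.94), the glucuronosyltransferase *Ugt2b34* (-1.19 and -0.84), the respiratory chain subunit *Cox7a1* (-0.80 and -0.77), *Gm48281* (-0.74 and -1.32) and *Cyp2d12* (-1.44 and -0.71). The others were *Tk1* (-1.27 and -0.66), *Trim63* (-0.69 and -0.64), the phosphate transporter *Slc34a3* (-0.99 and -0.61), *Srcin1* (-0.85 and -0.61), *Nepn* (-1.03 and -0.60) and *Acmsd* (-0.71 and -0.60). With thinned cells the young ratio of *Gm48281* was 0.72, and with at least 2 marker UMIs the old ratio of *Srcin1* was 0.17. *Acmsd* was widely expressed, with a UMI in 77.1% against 95% of young and 79.0% against 93.2% of old cells.

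Old marked cells were finally set against young marked cells. Of 8912 genes 1761 (19.8%) were higher and 633 (7.1%) lower in the old library. The same ratio was taken in the matched unmarked cells, since the libraries differ as a whole, and the median over all genes was 0.125. MHC class II genes had 6194 against 43.7 CPM, with a median log2 ratio of 7.03 in marked and 6.39 in unmarked cells, and interferon response genes 4.97 and 3.74. These lists were thus far higher in the old library whether or not a cell was marked. For NF-κB targets all 16 genes compared were higher, at a median of 2.73 in marked and 0.78 in unmarked cells, and 1567 against 203 CPM in sum. Genes were compared by their UMIs in marked cells. A gene that reached the minimum only through old marked cells, such as *Ccl2* with 3 young and 1048 old UMIs, had to be higher. The counts and marked medians of these lists are thus a description. The injury list was at 1.43 and 0.21. Immediate early and heat shock genes were at 1.10 and -0.05, and profibrotic genes at 0.71 and -0.26. The S3 list was at a median of -2.14 in marked and -1.04 in unmarked cells, and S1 and S2 genes were at 0.98 and 0.07. Within the cells with *Xist* and no Y-linked UMI, 366 genes were higher and 343 lower, and the medians of immediate early and profibrotic genes were -0.061 and -0.70. Whether these differences follow age or the mice, sex mixture and handling of each pool cannot be told apart. The marked cells also differed in make-up, with 208 *Havcr1*-only and 69 *Vcam1*-only young cells against 133 and 140 old ones. There were 40 young and 94 old cells with 3 or more marker UMIs, and 55.7% and 18.6% of marked cells were placed in S3. The part of this mix in the old over young ratios was not tested.

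Among genes with the highest old over young ratio, *Iigp1*, an interferon-induced GTPase, had 504 against 0.221 CPM in marked cells, and 345 against 0.110 CPM in unmarked cells. *Gbp2* had 281 against 0.773 CPM and *Ubd* 219 against 0.552 CPM, where unmarked old cells had 109 and 31.6 CPM. The other leading genes rested on single old cells. Of the antibody genes, 1 cell held 98.9% of the 46035 *Igkc* UMIs, 99.6% of those of *Ighg3* and 95.2% of those of *Jchain*, and the cell richest in *Vcam1* held the *Wfdc18* and most of the *Ccl2* UMIs. At the other end stood *Akr1c18* with 39.6 CPM in young against 0.141 CPM in old marked cells. Old marked cells had 1 *Akr1c18* UMI in all, so its log2 ratio of 1.18 within *Xist* cells gives no direction. The oxysterol hydroxylase *Cyp7b1* had 14.1 against 0.141 CPM and *Mettl7a2* 106 against 1.97 CPM. The glutamine transporter *Slc38a3* had 17.1 against 0.282 CPM and the prostaglandin-degrading *Hpgd* 34.8 against 0.846 CPM. *1700028P14Rik*, *Gm33472* and *Car5a* were lower as well, with 3, 0 and 3 old UMIs against 189, 174 and 159 young ones.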

How the data were processed

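Single-cell RNA-seq had been run on pooled kidneys of young and of old MRL-*lpr* mice. Per the study's methods and the labels, the authors built 10x 3′ libraries and used Cell Ranger (version 3) on mm10 to make the deposited files, which hold raw UMI counts per gene and barcode with no normalization. Both matrices were read whole. Tubule cells and marked cells were taken by the rule given at the start of the report, and Scrublet (scanpy 1.11.5) marked doublets without removing them. Each marked cell was paired with 1 unmarked tubule cell of its library, the nearest in total UMIs within 10%, starting from the deepest. UMIs were summed over cells and given as CPM. Intervals are exact Poisson intervals for CPM, Clopper-Pearson intervals for shares and exact binomial intervals for log2 ratios, at 95%. A gene was compared with at least 100 UMIs over both groups and called at 1.5-fold, with no p-value. Named genes were the 12 at each end of marked over matched cells with at least 100 UMIs in each library and the same sign in both, ranked by the smaller ratio, the 8 at each end of old over young marked cells, and the genes of the lists. Genes of the rule itself were left out. The members and lists were chosen with earlier results of these data known. Alternatives changed the marker and mitochondrial thresholds, the UMI minimum, the matching, the scaling and thinning, and are given in the closing section. Scripts were tested on simulated data and used Python 3.11.15, numpy 2.4.6, scipy 1.17.1, pandas 2.3.3 and matplotlib 3.10.9.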

Additional observations from a re-analysis of the deposited data

Results flagged for a closer look

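For 4 named genes the marked over matched ratio went opposite ways in the libraries. *Acsm3*, a medium-chain acyl-CoA synthetase of the S3 list, had a log2 ratio of 0.59 in the young and -0.60 in the old library. The chemokine *Cxcl16* had -0.63 and 0.82, the stress factor *Ddit3* -0.68 and 1.09, and the chaperone *Hspa1a* -0.59 and 0.63. The difference between the libraries was not tested, since each age is 1 library.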

How the results depend on the processing

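No paired analysis was possible because each age has 1 library, and no replicate could be left out. Counts of called genes moved with the choices that set depth or the genes tested. With a minimum of only 1 UMI in each group, there were 2572 genes 1.5-fold higher in marked cells than in depth-matched unmarked tubule cells, old, and 812 lower (757 and 82 as reported), and 2007 and 1332 in the young library (369 and 339). There were 3857 genes 1.5-fold higher in old than in young marked cells and 1775 genes 1.5-fold lower in old than in young marked cells (1761 and 633). With at least 300 UMIs these were 360 and 32, 175 and 179, and 908 for the last comparison's higher genes. Against all unmarked cells 207 old genes were lower, and 710 young genes were higher and 1706 lower. Thinned to 5000 UMIs, 324 old genes were lower, and 561 young genes were higher and 1209 lower. With at least 2 marker UMIs 342 old and 599 young genes were lower. The mean of the cells' own CPM gave 135 lower old genes, and matching within segment class 144 lower young genes. With cells that had a UMI of 10 genes of other lineages left out, 163 young genes were higher and 121 lower, and 865 and 353 in old over young cells. Within cells with *Xist* and no Y-linked UMI the latter were 366 and 343, with the minimum applied to these 33 young and 48 old cells alone. The share of marked cells was 0.878, 1.60 and 2.85% (young) and 2.71, 4.49 and 6.68% (old) at 2000, 5000 and 10000 UMIs, 1.24% and 3.72% with at least 2 marker UMIs, 5.52% (young) with at most 10% mitochondrial UMIs, and 3.20% (young) without cells of other lineages. Among ratios of at least 1.5-fold as reported, some changed sign within *Xist* cells, in old over young marked cells. These were *Akr1c18* (1.18), *Ccl2* (-0.99) and *Ighg3* (-0.40) and the medians of immediate early (-0.061) and profibrotic genes (-0.70). Over all marked cells *Akr1c18* had 1 old UMI, *Ccl2* 3 young UMIs and *Ighg3* 0 young UMIs. A sum of 0 was set to 3 counts, so the values of these genes within *Xist* cells give no direction. In marked over matched cells *Gm48281* was at 0.72 when thinned (young), *Lrg1* at -0.32 without its richest cell (young), *Srcin1* at 0.17 with at least 2 marker UMIs (old), and *Slc12a3* at -5.40 with at most 10% mitochondrial UMIs and -0.22 when matched within sex class (old). The causes were not tested. Leaving out the richest cell of each gene, or cells with fewer than 10 tubule UMIs, were chosen after seeing the data and left 690 and 713 old genes higher. The 690 apply the minimum of 100 UMIs to what remains, and with the tested genes held fixed 745 were higher, 717 of them among the 757. Values were counted by whether they stayed on the same side of 1.5-fold in size. A change of sign was counted only for values of at least 1.5-fold as reported. Of list medians, 159 stayed and 1 moved across in old marked over matched cells, and 148 and 12 in young ones. In old over young cells 141 stayed and 7 moved, and 2 changed sign. Of the values of named genes these were 335 and 46 with 3 that changed sign, 360 and 22 with 2, and 232 and 1 with 3. Depth limits what 1 marker UMI can show, and 1 library per age leaves differences between mice unmeasured.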
